A study of Mus musculus with 46 samples.

Results

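Gene expression was compared between total double-negative (DN) thymocytes of mice carrying the hCD2-LMO2 knock-in and of wild-type mice, over all genes. The comparison takes every library that the labels call total DN, 3 transgenic and 3 wild type, which are 6 of the 46 samples of the study. The series holds 40 RNA libraries in all, of sorted thymocyte subsets such as DN1 and DN3 and of splenic T cells, and 6 chromatin immunoprecipitation or input libraries. All animals are of the C57BL/6 strain, and both groups were sorted as a mixture of all DN cells from the thymus. The knock-in places LMO2 under human CD2 elements, which drive expression in T cells, so the transgenic group models LMO2 that stays on in that lineage. The age and sex of the mice, the species of the inserted LMO2 sequence, and whether equal replicate numbers share a litter are not stated. The labels do not say that replicates came from separate animals, so the p values below measure the spread between these samples.

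DN thymocytes are the CD4-negative, CD8-negative precursors of the thymus. They enter as DN1 cells with some progenitor character, commit to the T lineage in DN2, rearrange the T-cell receptor beta gene in DN3, and divide in DN4 before they become CD4 and CD8 double positive (DP). LMO2 is a LIM-domain bridge without DNA-binding activity of its own: it joins LDB1, helix-loop-helix factors of the TAL1 and LYL1 kind with their E-protein partners, and GATA factors. It is needed for blood stem cells to form, is normally shut down as T cells commit, and is an oncogene of T-cell acute lymphoblastic leukaemia.

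The 6 libraries held between 21165307 and 28842773 reads counted in genes, and 12509 genes had enough reads to be tested. Transgenic replicate 2 stood between the other transgenic libraries and the wild type. Its correlation of log expression across genes with the wild-type libraries was 0.951 to 0.954, where transgenic replicates 1 and 3 gave 0.881 to 0.913 and the wild-type libraries gave 0.977 to 0.993 among themselves. The column names of transgenic replicates 1 and 3 end in the letter N and that of replicate 2 does not. The labels do not explain the letter, which no wild-type DN column carries, so it cannot be told apart from genotype in those replicates. Of the 935 genes that rose in transgenic DN cells (described below), transgenic replicate 2 was the lowest of the 3 transgenic libraries in 772, and of the 612 that fell it was the highest in 459. Over all 12509 genes tested it was the lowest of the 3 in 4582 and the highest in 4495. The genes that rose or fell were called from these same libraries.

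Haemoglobin reads, which come from red cells and their precursors, differed widely between libraries of 1 genotype. The 9 haemoglobin genes took 0.195%, 0.172% and 2.31% of reads in wild-type replicates 1, 2 and 3, and 0.00452%, 0.28% and 0.0425% in transgenic replicates 1, 2 and 3. Wild-type replicate 3 was the highest and transgenic replicate 1 the lowest, and the groups overlapped, because transgenic replicate 2 lay above wild-type replicates 1 and 2. The widest exact Clopper-Pearson interval in relative terms, that of transgenic replicate 1, ran from 0.00426% to 0.0048%, and such intervals cover counting error only. No haemoglobin gene passed the test: Hba-a1, the adult alpha-globin gene with the most reads, had a log2 fold change of -2.96 ± 1.65 (SE) and an adjusted p of 0.269. Its copy Hba-a2 is nearly identical, so the split of reads between them is uncertain. In bulk samples, fewer cells of a type and less RNA per cell cannot be told apart. Of 16 erythroid genes tested, 15 had a negative log2 fold change and 1 passed the test, Hemgn, a nuclear protein of blood progenitors, at 61.2, 8.88 and 32.9 CPM in the transgenic libraries and 3.47, 3.87 and 2.69 CPM in the wild type. Hemgn held only without transgenic replicates 1 or 2, with an adjusted p of 0.0285 and otherwise up to 0.147. Leaving the erythroid genes out of scaling and testing gave 1532 changed genes in place of 1547, which are 12.4% of all genes tested.

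**Figure D1:**
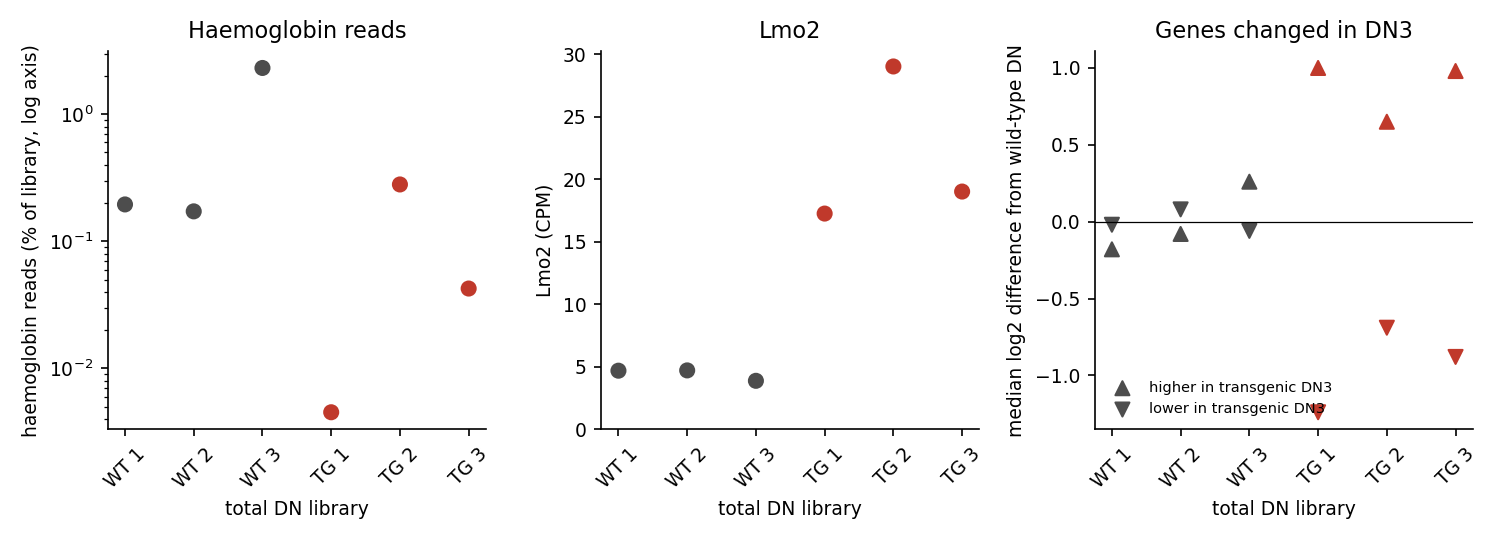
Haemoglobin reads as a percent of each library on a log axis (left), Lmo2 in CPM (middle), and the median log2 difference from the wild-type DN mean of genes that rose or fell at least 2-fold in transgenic DN3 cells (right), for the 3 wild-type (grey) and 3 transgenic (red) total DN libraries. On the right each wild-type library is set against the mean of the other wild-type libraries. Wild-type replicate 3 stands at 2.31% haemoglobin, and transgenic replicate 2 has the highest Lmo2 and the smallest differences of the 3 transgenic libraries on the right.

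Lmo2 (identifier 16909) checked the labels. It stood at 4.70, 4.72 and 3.89 CPM in the wild-type libraries and at 17.3, 29.0 and 19.0 CPM in the transgenic libraries, where CPM is the usual read count per gene relative to the library's depth, after scaling by the trimmed mean of M values (TMM). The groups did not overlap, as in 4823 of the 12509 genes tested (38.6%), 19% higher and 19.5% lower in transgenic cells. The library with the most Lmo2 was transgenic replicate 2, the one that elsewhere lay closest to the wild type. The log2 fold change, transgenic over wild type, was 2.29 ± 0.26 (SE, 3 against 3 libraries) with an adjusted p of 0.00338. Adjusted p values throughout are those of edgeR's quasi-likelihood test, two-sided and adjusted by Benjamini-Hochberg over all genes tested, and a gene is said to rise or fall where this value is under 0.05. An exact permutation test on 3 against 3 libraries cannot give a p under 0.1, so none is reported.

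Of the 12509 genes 1547 changed (12.4%), 935 up (7.47%) and 612 down (4.89%). By at least 2-fold, 573 rose (4.58%) and 395 fell (3.16%). Increases made up the larger share of the changes least dependent on 1 library: 137 genes that rose (1.1%) and 35 that fell (0.28%) passed the threshold in the fit of all libraries and in each of the 6 fits that left 1 library out. Below, "6 of 6 fits" refers to these. Leaving out wild-type replicate 1, 2 or 3 gave 252, 179 or 888 changed genes, and leaving out transgenic replicate 1, 2 or 3 gave 1155, 3146 or 371. In the fit without wild-type replicate 3, the library with the most haemoglobin reads, 571 genes rose (4.47%) and 317 fell (2.48%). Of the 132 genes picked for naming from the changed genes, the call was lost by 92, 96 or 52 on leaving out wild-type replicate 1, 2 or 3, and by 29, 1 or 74 on leaving out transgenic replicate 1, 2 or 3, and no direction turned.

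**Figure D2:**
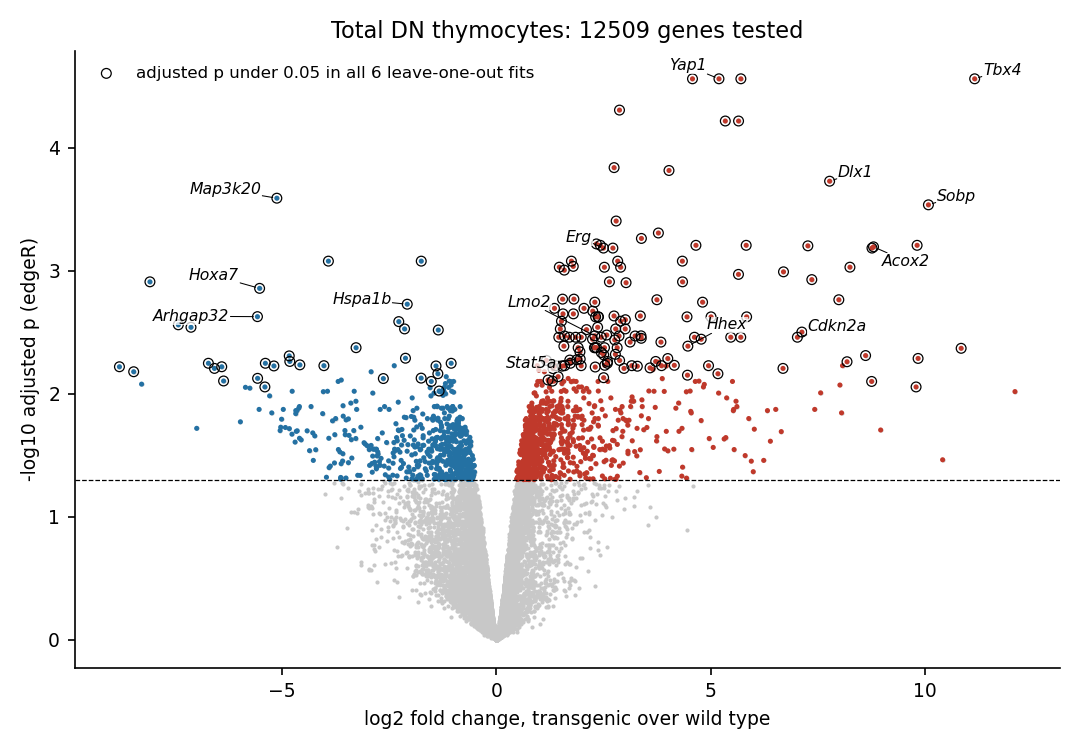
Log2 fold change of each of the 12509 genes (horizontal) against the negative log10 of edgeR's adjusted p (vertical) in total DN cells, with genes that rose in red and genes that fell in blue. The dashed line marks an adjusted p of 0.05, circles mark the 137 rising and 35 falling genes past it in all 6 leave-one-out fits, and Tbx4 and Yap1 lie at the top.

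Several of the genes with the largest increases had few or no reads in wild-type DN cells. Genes with so few wild-type reads, here and below, passed the filter on low counts only through the transgenic libraries. The rule of a mean of at least 5 CPM was likewise met only through these. Their number and direction are shaped by both and are given as a description. The standard errors of such genes, derived from the test statistic, are approximate and can be too small. Tbx4, a T-box transcription factor of hindlimb and lung development, stood at 74.4, 53.6 and 79.2 CPM in the transgenic libraries and had 2 reads in the 3 wild-type libraries together (edgeR adjusted p = 2.75e-05). Sobp, a nuclear zinc-finger protein, had 1 wild-type read and stood at 26.5, 14.7 and 16.1 CPM in the transgenic libraries. Dlx1, a homeobox factor of forebrain interneurons, stood at 0.145, 0.0744 and 0.0414 CPM in the wild type and at 14.7, 26.5 and 19.9 CPM in the transgenic libraries, a log2 fold change of 7.77 ± 0.46 (edgeR adjusted p = 0.000187). For these genes transgenic replicate 2 was of the same order as its fellows, and for Dlx1 it was the highest. Each passed the threshold in 6 of 6 fits, as did Faxc at 12.6, 9.40 and 10.6 CPM against 3 wild-type reads in all, and Pof1b, an actin-binding protein, at 15.9, 8.78 and 22.9 CPM against 1 wild-type read. Olig3, a helix-loop-helix factor of neural progenitors, had 6 wild-type reads and stood at 40.3, 8.33 and 17.2 CPM, and its adjusted p was 0.00591, or 0.0525 without wild-type replicate 2.

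In other strongly raised genes transgenic replicate 2 lay far below replicates 1 and 3, while still above the wild type. Thsd4, a matrix microfibril protein and the gene with the largest fitted increase among those named, had 1 wild-type read and stood at 117, 10.5 and 104 CPM in transgenic replicates 1, 2 and 3. Slc7a8, a carrier of large neutral amino acids, stood at 2.46, 2.75 and 5.34 CPM in the wild type and at 973, 114 and 895 CPM in the transgenic libraries (7.56 ± 0.99, edgeR adjusted p = 0.00983). Its heavy-chain partner Slc3a2 rose by 1.55 ± 0.33, from 114 to 135 CPM in the wild type up to 483, 185 and 425 CPM. Mdga1, a membrane-anchored adhesion protein, rose by 6.51 ± 0.95 to 753, 75.8 and 378 CPM. Clec4e, the pattern-recognition receptor Mincle of myeloid cells, rose by 6.64 ± 1.16 to 144, 9.54 and 47.8 CPM from under 1.1 CPM in the wild type. Thsd4, Slc7a8, Mdga1 and Clec4e were picked by a rule that required groups without overlap, and Slc3a2 had no overlap either. The spread among the transgenic libraries was wide. Without wild-type replicate 2 the adjusted p was 0.123 for Thsd4, 0.0881 for Slc7a8, 0.132 for Slc3a2, 0.0981 for Mdga1 and 0.123 for Clec4e, and each was also lost without wild-type replicate 1. Slc3a2 and Clec4e were lost too without wild-type replicate 3 and transgenic replicate 3.

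Among the other large increases, Adamts9, a secreted metalloprotease, stood at 0.361, 0.149 and 0.372 CPM in the wild type and at 49.3, 16.6 and 26.7 CPM in the transgenic libraries, and rose by 6.69 ± 0.56 in 6 of 6 fits (edgeR adjusted p = 0.00102). Zfp711, a zinc-finger protein, rose by 7.12 ± 0.71 to 64.1, 22.8 and 15.6 CPM, again in 6 of 6 fits. Lrrc4b, a synaptic adhesion protein, reached 33.5, 3.08 and 24.5 CPM and Rtn4r, the Nogo receptor, 19.7, 0.933 and 9.56 CPM, each with 9 wild-type reads in all. Lrrc4b was lost without wild-type replicates 1 and 2, with adjusted p of 0.0786 and 0.0881. Rtn4r was lost without any 1 of the wild-type libraries (0.104, 0.13 and 0.0716) or transgenic replicate 3 (0.0705).

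The partners of LMO2 itself were partly raised. Of 17 tested members of the complex and its close relatives 5 rose and 0 fell, against 7.47% and 4.89% of all genes, and the median log2 fold change was 0.13 against -0.01 over all genes. Lyl1, the helix-loop-helix partner, stood at 10.01, 9.85 and 4.92 CPM in the wild type and at 293, 58.4 and 223 CPM in the transgenic libraries. Its log2 fold change was 4.53 ± 0.67 (edgeR adjusted p = 0.0139, and 0.0719 and 0.0959 without wild-type replicates 1 and 2). Tal1, the related factor, was under 0.71 CPM in each library and did not pass the test. Gata1, the GATA factor of red cells, platelets and mast cells, stood at 1.23, 1.08 and 0.704 CPM in the wild type and at 5.50, 3.70 and 8.43 CPM in the transgenic libraries. Gata3, the GATA factor of T cells, rose by 1.06 ± 0.27 from 119, 124 and 158 CPM to 318, 171 and 344 CPM. The co-repressor Cbfa2t3 rose by 0.97 ± 0.22 and the LDB1-stabilising Ssbp3 by 0.49 ± 0.13. Gata1 was lost without wild-type replicates 1 and 2 and transgenic replicate 3, Gata3 and Cbfa2t3 without each library but transgenic replicate 2, and Ssbp3 without each but wild-type replicate 3 and transgenic replicate 2, at adjusted p of up to 0.0879, 0.171, 0.129 and 0.249.

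Genes of stem and progenitor cells moved in both directions. Of 20 tested 5 rose and 1 fell, against 7.47% and 4.89% of all genes, with a median log2 fold change of 0.38. Hhex, a homeobox factor of early progenitors, stood at 8.21, 7.96 and 4.64 CPM in the wild type and at 204, 72.5 and 184 CPM in the transgenic libraries. Erg, an ETS factor of stem cells, stood at 15.3, 13.9 and 12.99 CPM against 94.8, 61.0 and 82.1 CPM. Nfe2, a factor of platelet and red cell precursors, stood at 11.8, 10.4 and 10.5 CPM against 291, 114 and 257 CPM. In all of them every transgenic library lay above every wild-type library, as in 19% of all genes tested. Replicate 2 was the lowest transgenic one, and the call held in 6 of 6 fits. Kit, the stem cell factor receptor, rose by 1.998 ± 0.34 to 235, 124 and 338 CPM from 54.9, 57.0 and 62.5 CPM, and Myb rose by 0.84 ± 0.16. Kit was lost without each wild-type library in turn (adjusted p 0.0752, 0.0853 and 0.0522), and Myb without wild-type replicates 1 and 2 and transgenic replicate 3 (0.0784, 0.119 and 0.067). Hmga2, a chromatin protein of fetal stem cells, fell by 3.68 ± 0.83 from 61 reads to 4 over the libraries of each group, while the RNA-binding protein gene Igf2bp3, another gene of fetal cells, rose by 3.71 ± 0.44 from 5.24, 4.54 and 5.67 CPM to 32.0, 106 and 65.2 CPM. Igf2bp3 held in 6 of 6 fits and had its highest value in transgenic replicate 2. Hmga2 held in 2, without transgenic replicates 1 and 2, and its adjusted p otherwise reached 0.124. It passed the filter on low counts only through the wild type.

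The Hoxa genes, homeobox factors of stem cells that are often active in T-cell leukaemia, were among the low-count genes. The 4 that were tested, Hoxa3, Hoxa4, Hoxa5 and Hoxa7, passed the filter on low counts only through the wild type, where they were higher, so their number and direction are shaped by that filter and are given as a description. Hoxa7 stood at 4.84, 4.61 and 4.47 CPM in the wild type and at 0.0451, 0.138 and 0.0981 CPM in the transgenic libraries, and fell by 5.52 in 6 of 6 fits (edgeR adjusted p = 0.00139). Hoxa5 had 121 reads in the wild type and 0 in the transgenic libraries. With a floor of 3 reads over the group, its log2 fold change was at most -5.20. Hoxa3 had 89 reads in the wild type and 3 in the transgenic libraries, and Hoxa4 114 and 5. Hoxa5 was lost without wild-type replicate 2 (0.0573), Hoxa4 without each wild-type library (0.0861, 0.11 and 0.0643), and Hoxa3 without each of these and transgenic replicate 3 (up to 0.107). The other 7 of the 11 genes listed did not reach the read filter, so nothing is said of them.

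Yap1, the transcriptional coactivator at the end of the Hippo pathway, had the lowest adjusted p of the list genes. It stood at 1.52, 1.93 and 2.03 CPM in the wild type and at 61.4, 78.8 and 59.9 CPM in the transgenic libraries. Transgenic replicate 2 was the highest, and the log2 fold change was 5.19 ± 0.21 (edgeR adjusted p = 2.75e-05; the highest value with 1 library left out was 0.00129). The Hippo pathway is a kinase cascade that keeps YAP1 out of the nucleus. Of its 13 genes tested 4 rose and 1 fell, against 7.47% and 4.89% of all genes, with a median of -0.10. Sav1, the scaffold of its upstream kinases, rose by 1.35 ± 0.14 from 41.9, 39.7 and 40.3 CPM to 116, 96.5 and 98.6 CPM in 6 of 6 fits. Tead3, a DNA-binding partner of YAP1, stood at 1.48, 1.38 and 2.69 CPM against 7.39, 3.87 and 8.04 CPM, and the YAP1-binding Amotl1 at 0.217, 0.409 and 0.704 CPM against 2.66, 1.69 and 3.38 CPM. Amotl1, with 34 wild-type reads in all, passed the filter on low counts only through the transgenic libraries, so its place among the genes that rose is a description. Mob1b, an activator of the LATS kinases, fell by 0.90. Lats1, the kinase that phosphorylates YAP1, had a log2 fold change of -0.75 ± 0.22 and an adjusted p of 0.0618. Without wild-type replicate 2 the adjusted p was 0.158 for Amotl1, 0.176 for Tead3 and 0.188 for Mob1b, and without wild-type replicate 1 it was 0.112, 0.134 and 0.1. All of these were also lost without transgenic replicate 3, Tead3 and Mob1b without transgenic replicate 1, and Mob1b without wild-type replicate 3.

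LMO2 complexes are known to sit at E-box and GATA sequences, so the promoters of 3 genes that rose in 6 of 6 fits are shown, with 250 bases before and 50 after the start site, from RefSeq on GRCm38.p6. Capitals mark matches on either strand to the E-box CAGCTG, to its variant CAGGTG or to the GATA sequence AGATAA. Tbx4 is at chr11:85896515-85896814 on the plus strand, Yap1 at chr9:8004547-8004846 on the minus strand, and Hhex at chr19:37434591-37434890 on the plus strand.
Tbx4: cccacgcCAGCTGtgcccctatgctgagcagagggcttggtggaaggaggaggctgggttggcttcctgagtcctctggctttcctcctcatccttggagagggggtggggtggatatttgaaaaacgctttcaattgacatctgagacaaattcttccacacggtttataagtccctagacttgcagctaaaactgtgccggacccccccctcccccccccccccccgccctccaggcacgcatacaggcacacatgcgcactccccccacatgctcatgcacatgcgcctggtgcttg
Yap1: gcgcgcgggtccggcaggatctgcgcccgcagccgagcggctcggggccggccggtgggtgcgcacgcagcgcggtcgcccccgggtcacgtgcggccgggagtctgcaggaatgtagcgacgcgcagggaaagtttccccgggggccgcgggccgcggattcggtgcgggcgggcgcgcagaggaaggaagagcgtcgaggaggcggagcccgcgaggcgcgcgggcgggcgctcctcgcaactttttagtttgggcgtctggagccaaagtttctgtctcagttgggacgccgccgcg
Hhex: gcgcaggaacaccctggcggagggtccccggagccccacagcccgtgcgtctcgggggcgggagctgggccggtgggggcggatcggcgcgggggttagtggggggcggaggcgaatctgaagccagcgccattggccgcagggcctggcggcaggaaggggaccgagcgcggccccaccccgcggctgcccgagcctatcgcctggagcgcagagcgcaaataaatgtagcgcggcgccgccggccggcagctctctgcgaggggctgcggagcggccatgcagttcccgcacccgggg
The Tbx4 window held 1 match, to CAGCTG, and the Yap1 and Hhex windows held none, which says only that these letters are absent from these 300 bases. Windows were at hand for 10022 of the 12509 genes tested. AGATAA was in 6.64% of them, 8% of those of genes that rose (700 windows) and 4.69% of those of genes that fell (490 windows). CAGCTG was in 14.7%, 19.3% and 15.1%, and CAGGTG in 17.4%, 19.6% and 19.6%. These shares are a description, and a match is not a binding site.

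Of 25 CDK inhibitors and p53 targets tested, 7 rose and 1 fell, against 7.47% and 4.89% of all genes, with a median of 0.32, and 17 did not pass the test. Cdkn2a, which encodes the CDK inhibitor p16 and the p53 activator p19ARF, had 5 reads in the wild type in all and stood at 14.01, 7.01 and 5.44 CPM in the transgenic libraries (7.02 ± 0.82, edgeR adjusted p = 0.00347, in 6 of 6 fits). This gene passed the filter on low counts only through the transgenic libraries. The groups did not overlap, as in 19% of all genes in this direction, and transgenic replicate 1 was the highest. The p53 targets Phlda3, an inhibitor of AKT, and Gtse1, a mitotic regulator of p53, rose by 2.28 ± 0.38 and 1.53 ± 0.21, and Gtse1 held in 6 of 6 fits. Among the cell death genes of the list, Bax rose by 0.64 ± 0.14, Bbc3, which encodes PUMA, by 1.10 ± 0.28, and Perp by 2.96 ± 0.72. The CDK inhibitor Cdkn2d rose by 1.22 ± 0.26, and Mdm4, which restrains p53, fell by 0.97 from 295, 348 and 325 CPM to 145, 227 and 121 CPM. Other p53 targets did not pass the test: Pmaip1, which encodes NOXA, had a log2 fold change of -1.88 ± 0.59 with an adjusted p of 0.0757. Cdkn1a, the p53 target p21, stood at 18.7, 20.8 and 27.4 CPM in the wild type and at 26.4, 7.75 and 6.11 CPM in the transgenic libraries, which overlap. Phlda3 was lost without wild-type replicates 1 and 2 (0.0683 and 0.0693), and Cdkn2d, Bax, Bbc3, Perp and Mdm4 held in 1 or 2 of 6 fits, with adjusted p of up to 0.116, 0.143, 0.171, 0.157 and 0.153, each of these without wild-type replicate 2.

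Of 40 cell cycle genes 2 rose and 3 fell, with a median of 0.12, 26 positive values and 13 negative ones. These calls are 12.5% of the list, near the 12.4% of all genes, of which 7.47% rose and 4.89% fell. The cyclin Ccnd3, which drives the division of precursors, rose by 1.01 ± 0.15 from 535, 514 and 550 CPM to 1151, 935 and 1129 CPM, and the phosphatase Cdc25b rose by 1.37 ± 0.24. Cyclin E2 (Ccne2) fell by 1.13, the kinase Cdk6 by 0.56 and the factor E2f2 by 0.54. Ccnd3 was lost without wild-type replicate 2 (adjusted p 0.0693), Cdc25b without this and wild-type replicate 1 (0.0758 and 0.0683), and Ccne2 without these and transgenic replicate 3 (up to 0.109). E2f2 held only without transgenic replicate 2, and Cdk6 in no leave-one-out fit (0.0516 to 0.19). The retinoblastoma gene Rb1 fell by 0.70 in the list of leukaemia genes, where 5 of 35 rose and 1 fell, and it held only without transgenic replicate 2, with adjusted p otherwise up to 0.207. Etv6, an ETS repressor, rose by 1.47 ± 0.27 in that list from 107, 104 and 159 CPM to 442, 237 and 345 CPM, with an adjusted p of 0.0161, or up to 0.0901 without wild-type replicates 1 or 2 or transgenic replicate 3, where it was lost.

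Of 21 genes of peroxisomes and fatty acid oxidation 3 rose and 0 fell, against 7.47% and 4.89% of all genes, with a median of 0.36, and 18 did not pass the test. Ppara, the nuclear receptor that switches on fatty acid oxidation in the liver, had 3 wild-type reads in all and stood at 8.11, 5.32 and 7.60 CPM in the transgenic libraries (edgeR adjusted p = 0.00118, in 6 of 6 fits). Acox2, a peroxisomal oxidase of branched chains and bile acid precursors, had 5 wild-type reads and stood at 23.2, 21.7 and 46.3 CPM. Both Ppara and Acox2 passed the filter on low counts only through the transgenic libraries. Acadl, a mitochondrial acyl-CoA dehydrogenase, rose by 1.06 ± 0.16 from 73.2, 64.7 and 60.4 CPM to 125, 162 and 128 CPM, and was lost without wild-type replicate 2 (0.0648). Transgenic replicate 2 was no lower than its fellows in Acadl and close to replicate 1 in Acox2. In sterol metabolism Srebf2, the master factor of cholesterol synthesis, rose by 0.85 ± 0.18. Of 24 genes there 2 rose and 1 fell, and Srebf2 was lost without wild-type replicates 1 and 2 and transgenic replicates 1 and 3. Hk1, a hexokinase, rose by 1.84 ± 0.32 as the only called gene of 22 of glycolysis and hypoxia, and was lost without wild-type replicates 1 and 2 and transgenic replicate 3 (up to 0.0865).

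**Figure D3:**
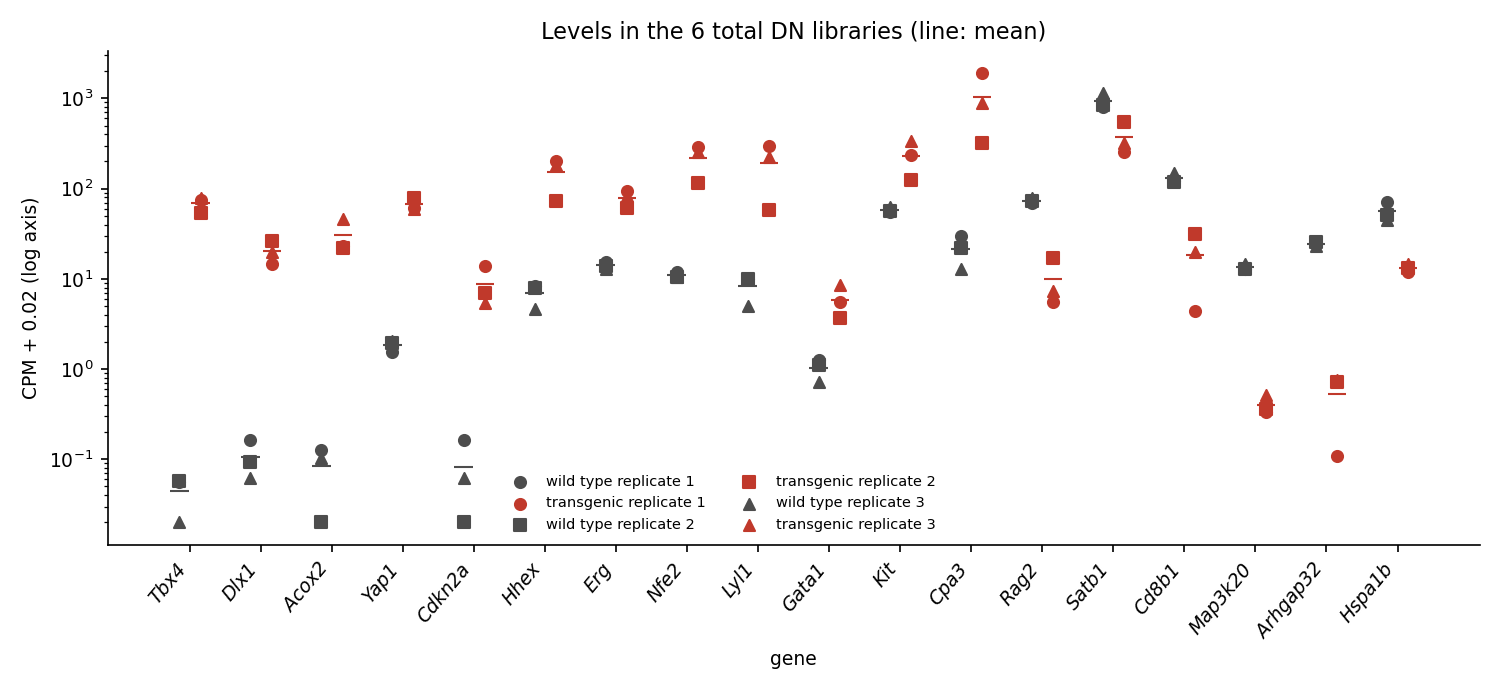
CPM plus 0.02 on a log axis for 18 genes in each total DN library, wild type in grey and transgenic in red, with the marker shape giving the replicate and a line at the group mean. Transgenic replicate 2 (red square) lies near its fellows for Tbx4, Dlx1 and Yap1 and nearest to the wild type for Lyl1, Cpa3, Rag2 and Cd8b1.

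Among the largest decreases, Arhgap32, a GTPase-activating protein, stood at 24.3, 25.8 and 23.3 CPM in the wild type and at 0.0901, 0.691 and 0.736 CPM in the transgenic libraries, and Map3k20, the stress kinase ZAK, at 12.8, 12.8 and 14.7 CPM against 0.315, 0.346 and 0.490 CPM. Both held in 6 of 6 fits. Fam163b stood at 45.2, 49.4 and 57.9 CPM against 0.361, 2.97 and 2.21 CPM, Pla2g4a, the cytosolic phospholipase that frees arachidonic acid, at 11.9, 10.6 and 7.49 CPM against 0.0901, 0.933 and 1.08 CPM, and Aim2, a sensor of cytosolic DNA, at 41.1, 39.8 and 29.2 CPM against 0.270, 5.46 and 1.47 CPM. Their log2 fold changes were -4.76 ± 0.64, -3.82 ± 0.70 and -3.90 ± 0.89 with edgeR adjusted p of 0.00954, 0.0166 and 0.0398. Eepd1 fell by 3.27, Sh2b2, an adaptor of receptor kinases, by 3.26, Nrg2, a neuregulin, by 3.62, Adamtsl2 by 3.57 and Syt13 by 3.28. The poly-ADP-ribosyltransferase Tiparp, a target of the aryl hydrocarbon receptor, fell by 2.71 from 14.8, 15.02 and 14.9 CPM to 0.811, 3.14 and 2.84 CPM.

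Among these decreases only Arhgap32, Map3k20 and Eepd1 held in 6 of 6 fits. Without wild-type replicate 2 the adjusted p was 0.0629 for Fam163b, 0.0806 for Pla2g4a, 0.176 for Aim2, 0.0613 for Sh2b2, 0.146 for Nrg2, 0.0723 for Adamtsl2, 0.0629 for Syt13 and 0.065 for Tiparp, and all 8 were also lost without wild-type replicate 1. Without transgenic replicate 3 Pla2g4a, Aim2, Nrg2, Adamtsl2 and Tiparp were lost, and without wild-type replicate 3 Aim2 and Nrg2. Tet2, the enzyme that oxidises methylated cytosine and a tumour suppressor of blood cells, fell by 1.94 ± 0.33 from 32.9, 43.5 and 44.0 CPM to 6.53, 16.03 and 8.68 CPM. It was the only called gene of 8 DNA methylation enzymes (12.5%, against 12.4% of all genes). Its edgeR adjusted p was 0.0137, or up to 0.0709 without wild-type replicates 1 or 2 or transgenic replicate 3, where it was lost. Smaller decreases that held in 6 of 6 fits were those of the lysosomal sorting receptor Sort1 by 1.76, the potassium channel Kcna3 by 1.52, Ccdc85c by 1.75, Rab44 by 2.28 and Klhdc2 by 2.14.

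Some genes that are switched on towards the DP stage fell in transgenic DN cells. Of 21 DP genes tested 6 fell and 1 rose, against 4.89% and 7.47% of all genes, with a median of -0.30, and without wild-type replicate 3 only 1 fell and 2 rose. Rag2, a subunit of the recombinase that cuts T-cell receptor genes, stood at 69.0, 72.7 and 79.0 CPM in the wild type and at 5.50, 16.9 and 7.31 CPM in the transgenic libraries. Cd8b1, the CD8 beta chain, stood at 121, 120 and 149 CPM against 4.37, 31.8 and 19.6 CPM. In both, transgenic replicate 1 was the lowest and transgenic replicate 2 the nearest to the wild type. Satb1, a chromatin organiser, fell by 1.30, the thymic chemokine receptor Ccr9 by 1.77 and Ets2 by 0.98, and the water channel Aqp11 rose by 0.61 ± 0.13. The adjusted p of Rag2 was 0.00987, and 0.0565 and 0.0569 without wild-type replicates 1 and 2. Cd8b1, Satb1 and Ccr9 held only without transgenic replicates 1 or 2, and their adjusted p otherwise reached 0.167, 0.121 and 0.0665. Ets2 held only without transgenic replicate 2, with an adjusted p otherwise up to 0.132, and Aqp11 only without this or wild-type replicate 3, with one otherwise up to 0.158.

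The coreceptor transcripts that a DN gate should lack were present in both groups, and of the 3 only Cd8b1 passed the test. Cd4, Cd8a and Cd8b1 summed to 201 to 320 CPM in the wild type and 34.7 to 118 CPM in the transgenic libraries. Cd4 itself was at 12.98, 15.9 and 50.4 CPM against 5.18, 28.6 and 21.2 CPM, and Cd8a at 66.8, 72.3 and 121 CPM against 25.1, 57.6 and 41.7 CPM (-1.06 ± 0.35, edgeR adjusted p = 0.0865). How far cells past the DN stage take part in the lower DP genes was not tested.

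Of 13 V(D)J recombination genes 0 rose and 2 fell, against 7.47% and 4.89% of all genes. The 2 were Rag2 and Dclre1c, which encodes the hairpin-opening nuclease Artemis and fell by 0.85 from 39.9, 45.6 and 38.0 CPM to 21.0, 26.7 and 21.0 CPM. Rag1, added here after its values were seen, stood at 699, 826 and 1146 CPM in the wild type and at 66.1, 298 and 68.1 CPM in the transgenic libraries. The groups did not overlap, as in 19.5% of all genes in this direction. Its log2 fold change was -2.63 ± 0.66 with an edgeR adjusted p of 0.0509. Ptcra, the invariant pre-T-cell receptor chain, stood at 81.8, 81.8 and 93.4 CPM against 3.11, 27.0 and 7.31 CPM, with -2.77 ± 0.74 and an adjusted p of 0.0594. Neither passed the threshold. Dntt, the terminal transferase, was at 1298, 1196 and 1126 CPM against 1601, 1483 and 1427 CPM (0.32 ± 0.14, adjusted p 0.167). Dclre1c was lost without wild-type replicates 1 and 2 and transgenic replicate 3 (up to 0.124).

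T-cell identity transcripts had similar summed levels in both groups. The 9 T-precursor markers summed to 7160 to 8110 CPM in the wild type and 7580 to 7690 CPM in the transgenic libraries. Tcf7 alone gave 2891 to 3549 CPM of this, so the sum says little of weaker members. Within it Gata3 rose, and Ptcra, at 81.8 to 93.4 CPM against 3.11 to 27.0 CPM, did not pass the test. For the lists that follow, the shares over all genes were 7.47% up and 4.89% down. In the list of 30 signalling genes of the receptor and its precursor form, 1 gene rose and 2 fell. The kinase Zap70 rose by 0.76 ± 0.17, and the phosphatase CD45 (Ptprc) fell by 0.96 and the NF-kB adaptor Malt1 by 1.25. Of 21 T-lineage factors 5 rose and 1 fell, with a median of 0.20. Beside Gata3 and Myb these were Runx3, a factor of the CD8 lineage, at 80.0, 91.6 and 132 CPM against 198, 148 and 244 CPM, Sox13, a factor of gamma-delta precursors, at 59.9, 55.8 and 52.7 CPM against 287, 96.0 and 202 CPM, and Zeb2, which rose by 0.84 ± 0.18. Of 18 genes of gamma-delta and NKT cells 1 rose and 3 fell, with a median of -1.30: Sox13 was raised, while Sox5, its relative, fell by 3.40 and 5830411N06Rik, a scavenger-receptor gene of gamma-delta cells, also fell. Each of these called genes was lost without wild-type replicates 1 and 2, and all but 5830411N06Rik without transgenic replicate 3. Zap70, Ptprc, Malt1, Runx3 and Sox13 held in 1 or 2 fits, with adjusted p of up to 0.167, 0.148, 0.132, 0.177 and 0.122. Zeb2 and Sox5 held in 3 fits and reached 0.14 and 0.065, and 5830411N06Rik held in 4 and reached 0.0744.

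Signalling genes of cytokine receptors and Notch changed singly, where 7.47% of all genes rose and 4.89% fell. Stat5a, the signal transducer of the IL-7 and IL-2 receptors, stood at 160, 167 and 204 CPM in the wild type and at 811, 438 and 695 CPM in the transgenic libraries (1.87 ± 0.24, edgeR adjusted p = 0.00529). It held in 6 of 6 fits, and every transgenic library lay above every wild-type library, as in 19% of all genes tested. Of 17 genes of IL-7 and IL-2 signalling Stat5a rose and the kinase Pim2 fell by 0.58. Of 22 genes of mature T cells 2 rose and 0 fell with a median of -0.36, among them the integrin chain Itgb7 by 1.33 ± 0.30. Il2ra, the CD25 chain used to gate DN2 and DN3 cells, was at 440, 415 and 628 CPM against 538, 923 and 578 CPM and did not pass the test (adjusted p 0.253). Of 22 Notch receptors and targets 1 rose, Heyl, by 2.45 ± 0.31 in 6 of 6 fits, from 1.45, 1.38 and 1.49 CPM to 7.66, 6.88 and 9.02 CPM. Pim2 and Itgb7 were lost without each wild-type library and transgenic replicate 3, and Pim2 also without transgenic replicate 1, at adjusted p of up to 0.177 and 0.137.

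Stress and innate genes changed singly, where 7.47% of all genes rose and 4.89% fell. Of 19 heat-shock genes 2 fell and 1 rose. The inducible Hsp70 copies Hspa1a and Hspa1b, whose sequences are nearly identical so that reads may be split between them, stood at 51.4, 30.2 and 19.6 CPM against 4.28, 5.39 and 6.62 CPM and at 71.2, 51.3 and 44.7 CPM against 12.03, 13.1 and 14.5 CPM. Their regulator Hsf1 rose by 0.48 ± 0.13. Of 23 immediate-early genes, which respond within minutes to stimulation or handling of cells, 2 fell and 1 rose, with a median of -1.02 and 18 negative values. Klf4 stood at 25.1, 25.5 and 10.8 CPM against 0.856, 3.80 and 4.27 CPM and fell by 2.78, and the nuclear receptor Nr4a2 fell by 1.39. In the list with transgenic replicate 2 left out, the transgenic library nearest to the wild type, 14 fell and 2 rose, against 11.1% and 13.5% of all genes. With wild-type replicate 3 left out instead, 1 fell and 1 rose, against 2.48% and 4.47% of all genes. Klf4 was lost without wild-type replicates 1 and 2 and transgenic replicate 3 (up to 0.13), and Nr4a2 and Hsf1 held only without transgenic replicate 2, at adjusted p otherwise up to 0.169 and 0.205.

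The remaining lists gave few calls, where 7.47% of all genes rose and 4.89% fell. Of 29 interferon-stimulated genes 2 rose, Oas3 by 1.07 ± 0.23 and Bst2 by 0.68 ± 0.14, and 0 fell. Of 15 guanylate-binding and immunity-related GTPases and of 22 myeloid genes none was called in either direction by edgeR. At an unadjusted p under 0.05, 2 and 1 of them passed in that test, and DESeq2 called 1 up and 1 down in each list. Without transgenic replicate 2, 6 of the GTPases fell, against 11.1% of all genes in that fit. Without wild-type replicate 3, 0 of them fell and 0 rose. Of 15 inflammasome and Naip genes, Naip5 rose by 2.42 ± 0.48 and Aim2 fell. Of 20 genes of antigen processing, Tap2 rose by 1.05 ± 0.25, H2-T23 by 0.52 ± 0.14, and their activator Nlrc5 fell by 1.16. Of 45 ribosomal protein genes Rpl8 alone was called, at 0.69 ± 0.15, with 39 positive values and a median of 0.12. Of 28 repair genes H2afx alone was called, at 1.04 ± 0.22. Among 25 genes of NK and innate lymphoid cells, Nkg7 rose by 1.67 ± 0.29 and the granzyme gene Gzma fell by 1.40, with a median of -0.82 and 21 negative values. Each of these genes was lost without wild-type replicates 1 and 2 and transgenic replicate 3, and most without wild-type replicate 3, at adjusted p of up to 0.233.

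**Figure D4:**
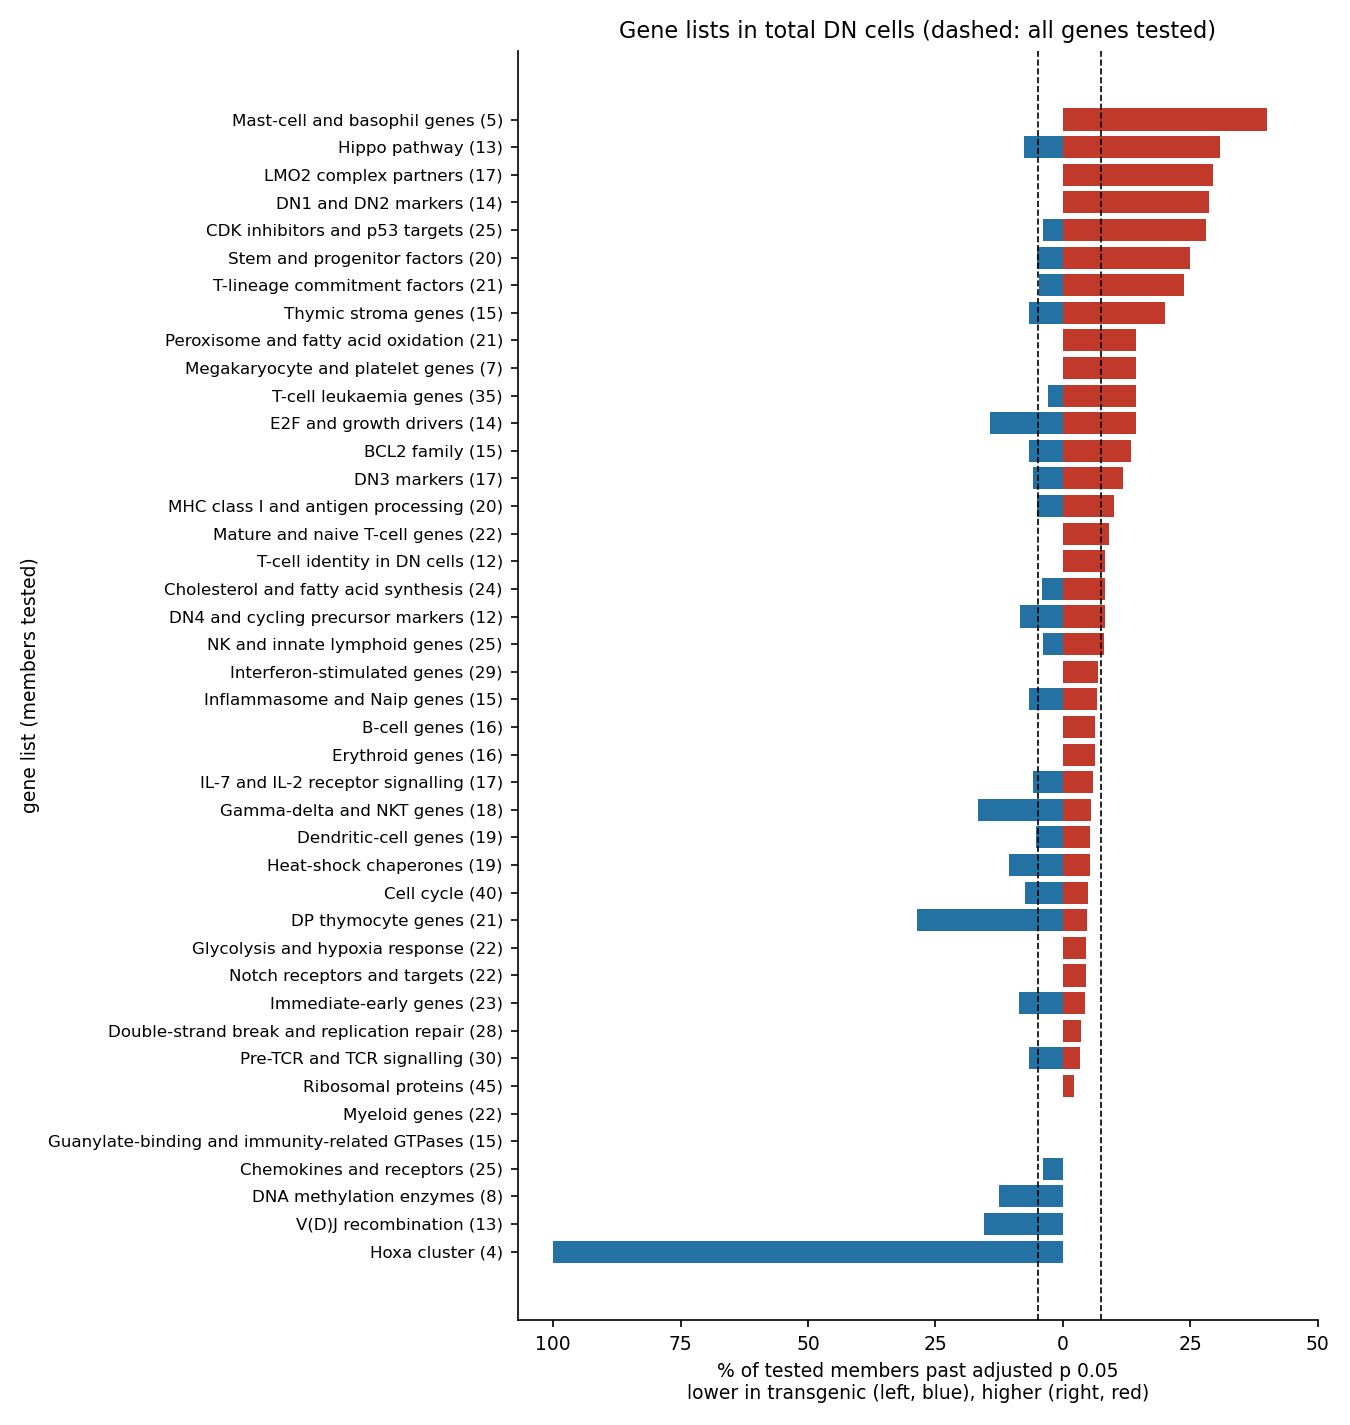
For each gene list, the percent of tested members that fell (left, blue) and rose (right, red) in transgenic DN cells, with the number tested in brackets. Dashed lines mark the 4.89% and 7.47% of all genes tested, and small lists such as the 4 Hoxa genes move by large steps.

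Markers of cells other than T precursors moved with genotype in some classes. Cpa3, a protease of mast cells that is also expressed in early progenitors, stood at 29.8, 22.2 and 12.8 CPM in the wild type and at 1900, 324 and 892 CPM in the transgenic libraries (5.59 ± 0.77, edgeR adjusted p = 0.0115, and 0.0616 and 0.0913 without wild-type replicates 1 and 2). Of the 6 mast-cell markers only 2 were tested, and Cpa3 was the 1 called, where 12.4% of all genes were. Hdc, at 0.952 to 1.64 CPM against 0.451 to 1.52 CPM, did not pass the test. Fcer1a, Ms4a2, Mcpt4 and Tpsb2 had 0 to 3 reads in each library and did not reach the read filter. Myeloid markers summed to 60.1 to 116 CPM against 13.6 to 120 CPM, B-cell markers to 119 to 274 CPM against 25.3 to 199 CPM, NK markers to 52.9 to 60.4 CPM against 4.19 to 56.6 CPM, and erythroid markers to 1650 to 23600 CPM against 49.4 to 2840 CPM. In each of these 4 classes transgenic replicate 1 was the lowest library. The part of these cells in the results above was not tested.

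Stromal markers had a higher sum, 370 to 948 CPM against 157 to 203 CPM in the wild type, through Pdgfrb, a growth factor receptor of mesenchymal cells, at 29.7, 32.1 and 39.8 CPM against 594, 166 and 537 CPM, and Pecam1, an adhesion molecule of endothelium and of blood cells, at 116, 103 and 137 CPM against 350, 190 and 220 CPM. The defining genes of thymic epithelium stayed near the floor: Foxn1 was at 0.614, 0.223 and 0.414 CPM against 0.0901, 0.346 and 2.06 CPM. The epithelial Epcam fell by 1.82 and the fibroblast collagen gene Col1a1 was at 0.723, 0.707 and 0.704 CPM against 0.270, 2.004 and 1.72 CPM. The intermediate filament gene Vim rose by 2.10 ± 0.31 from 150, 144 and 142 CPM to 597, 363 and 910 CPM. Pdgfrb and Vim were lost without wild-type replicates 1 and 2 (adjusted p up to 0.0696 and 0.0572), and Pecam1 and Epcam without each wild-type library and transgenic replicate 3 (up to 0.139 and 0.153).

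The genotype difference of total DN cells was then set against that of sorted DN3 cells, a subset of them, with 3 libraries of each genotype and no library in common. The question is where the mixture departs from its DN3 part. Of 12880 genes 776 differed in the size of the genotype effect (6.02%), 374 with a more positive (2.9%) and 402 with a more negative effect in total DN cells (3.12%). Of the 760 that had a fold change in both comparisons, 477 passed the threshold in DN3 only, 133 in total DN only and 61 in neither. A further 64 were changed in both with the same sign, and 25 in both with opposite signs. The fold changes had opposite signs in 507 of the 760, most of them not called in both. For 1322 of the 1547 genes changed in total DN cells the difference from DN3 did not pass the threshold, which does not show that the effects were alike. Beside this, 1010 genes rose at least 2-fold in transgenic DN3 and 926 fell at least 2-fold. For those that rose, the median log2 difference from the wild-type DN mean was 1.0, 0.65 and 0.98 in transgenic DN replicates 1, 2 and 3. For those that fell it was -1.24, -0.69 and -0.88. Each wild-type DN library was set against the mean of the other wild-type DN libraries. Wild-type replicates 1, 2 and 3 gave -0.18, -0.08 and 0.26 for those that rose, and -0.02, 0.08 and -0.06 for those that fell.

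Lmo2 itself was among the genes that differed, by -4.16 ± 0.36 (edgeR adjusted p = 0.00077), in each of the 12 fits that left 1 library out. Scaled over all 40 RNA libraries, Lmo2 stood at 16.7, 27.2 and 17.7 CPM in transgenic DN and 25.5, 20.1 and 19.1 CPM in transgenic DN3. The wild type held 4.25, 4.31 and 3.63 CPM in DN and 0.287, 0.218 and 0.211 CPM in DN3, so the transgenic ranges overlapped and the wild-type ranges did not. A higher wild-type level in the mixture than in DN3 recurred in the purinergic receptor gene P2rx7, at 26.9, 31.7 and 57.5 CPM in wild-type DN against 1.65, 2.22 and 1.94 CPM in wild-type DN3, with 118 to 372 CPM in transgenic DN and 168 to 258 CPM in transgenic DN3. The metalloprotease gene Adam19 was at 17.6 to 22.4 CPM in wild-type DN, 6.54 to 31.0 CPM in transgenic DN, 0.352 to 0.764 CPM in wild-type DN3 and 15.5 to 45.1 CPM in transgenic DN3, so its genotype effect was 0.12 in DN and 5.86 in DN3. Tenm4, a teneurin adhesion protein, rose in both, to 42.7, 55.5 and 43.5 CPM in DN and to 52.3 to 112 CPM in DN3, and differed by -4.76 ± 0.72. P2rx7 and Adam19 were lost without wild-type DN3 replicates 1 or 3 (adjusted p 0.0562 and 0.0606 for both), and Tenm4 without wild-type DN3 replicate 1 (0.0517).

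The coreceptor genes differed in sign. Cd8b1 fell in DN and rose by 1.19 in DN3, where it stood at 12.7, 14.3 and 9.75 CPM in the wild type and at 16.8, 35.9 and 31.5 CPM in the transgenic libraries, and the difference was -3.97 ± 0.77 (edgeR adjusted p = 0.0248). Cd8a was at 6.38, 11.7 and 7.11 CPM in wild-type DN3 and at 25.5, 66.8 and 53.3 CPM in transgenic DN3, and differed by -3.57 ± 0.60. In total DN cells the wild type was the higher group for both genes, by the values given above. Cd8a was lost without wild-type DN3 replicates 1 or 3 (0.0613 and 0.0702), and Cd8b1 without these, wild-type DN replicates 2 and 3, or transgenic DN3 replicates 2 and 3 (up to 0.0915).

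Other genes fell in DN3 without a like decrease in the mixture. Bcl11a, a zinc-finger repressor needed for B-cell development, stood at 18.8, 18.7 and 11.4 CPM in wild-type DN and at 0.741, 9.57 and 5.25 CPM in transgenic DN, against 12.5, 15.5 and 16.8 CPM in wild-type DN3 and 0.0343, 0.0345 and 0.108 CPM in transgenic DN3. The effects differed by 6.24 ± 1.15 (edgeR adjusted p = 0.0209), and transgenic DN libraries spread from 0.741 to 9.57 CPM. Cdkn1a, the CDK inhibitor p21, was at 67.5, 53.1 and 57.9 CPM in wild-type DN3 and at 3.12, 1.62 and 0.502 CPM in transgenic DN3, while in total DN cells the groups overlapped. The metalloprotease-like Adam11 fell in both, by 2.89 in DN and by 7.19 in DN3. Grm4, a glutamate receptor gene, rose by 1.71 in DN and fell by 1.31 in DN3, where it stood at 19.0, 22.2 and 23.2 CPM in the wild type and at 11.3, 7.55 and 7.14 CPM in the transgenic libraries. Its difference of 3.02 ± 0.42 held in each of the 12 leave-one-out fits, with an adjusted p of 0.0106. Adam11 was lost without wild-type DN3 replicates 1 or 3, and Bcl11a and Cdkn1a without these, wild-type DN replicates 2 or 3, or transgenic DN3 replicate 2 (adjusted p up to 0.0626, 0.0696 and 0.079).

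**Figure D5:**
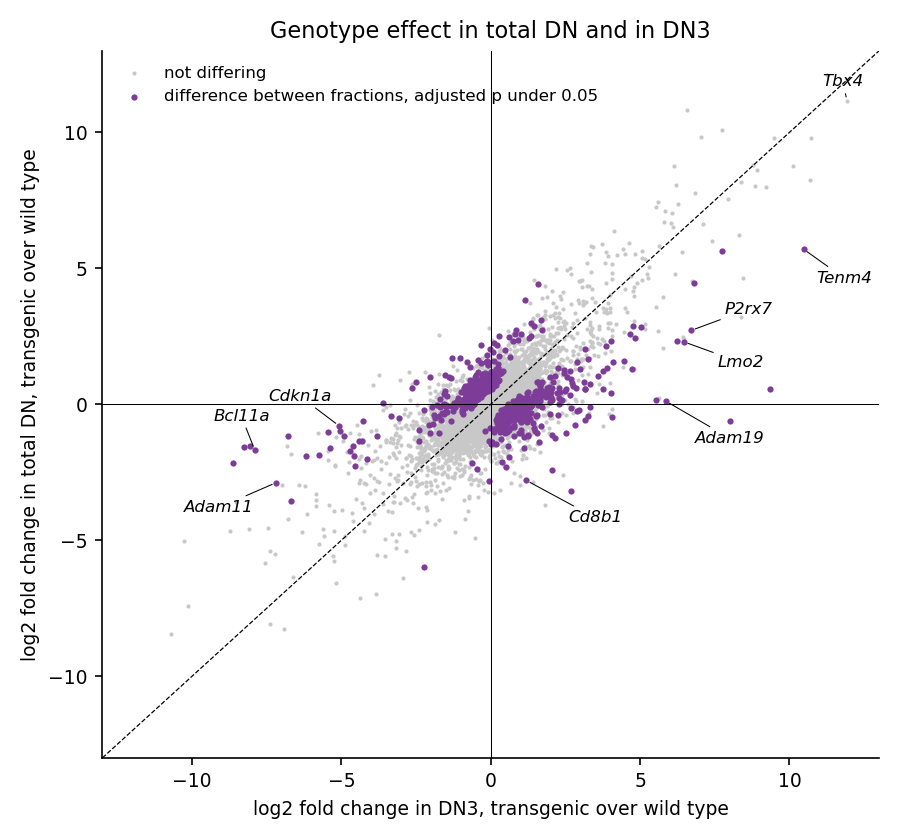
Log2 fold change, transgenic over wild type, in sorted DN3 cells (horizontal) and in total DN cells (vertical) for genes with both, with the 776 genes whose effects differ in purple and the dashed line at equal effects. Lmo2, P2rx7 and Tenm4 lie below the line on the right, Cd8b1 rises in DN3 and falls in total DN, and Bcl11a, Adam11 and Cdkn1a lie above the line on the left.

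Levels across thymic stages place the DN changes, as a description scaled over all 40 RNA libraries. Hhex and Lyl1 were high in the single wild-type DN1 library, at 39.8 and 40.1 CPM, and low in wild-type DN3, at 1.10 ± 0.61 and 1.11 ± 1.09 CPM (SD, n = 3). Their transgenic total DN level, 145 ± 68.3 and 182 ± 117 CPM, lay above the wild-type DN1 value. They are 2 of 14 DN1 and DN2 markers tested, of which 4 rose and 0 fell in total DN cells, with a median of 0.13. Over all genes 7.47% rose and 4.89% fell. The markers Cd44, Flt3, Spi1 and Cd34 overlapped between the groups. Scaled over the 6 DN libraries, Cd34 was at 4.59, 3.83 and 1.28 CPM in the wild type against 0.0451, 1.76 and 0.245 CPM. Yap1 was at 0.201 CPM in wild-type DN1 and 5.78 ± 2.65 CPM in wild-type DN3, and at 63.0 ± 9.65 CPM in transgenic DN, 54.4 ± 28.2 CPM in transgenic DN3 and 4.46 ± 2.68 CPM in transgenic DN1. Cdkn2a was higher in transgenic total DN, at 8.40 ± 4.53 CPM, than in transgenic DN1 and DN3, at 0.962 ± 0.383 and 1.88 ± 0.29 CPM. Cd8b1 was at 338 CPM in the wild-type DN1 library, at 2560 ± 867 CPM in wild-type DP cells, and at 12.3 ± 2.32 CPM in wild-type DN3. That DN1 library also held Cd4 at 548 CPM and Cd8a at 463 CPM, against 24.4 ± 19.6 and 79.8 ± 28.8 CPM in wild-type total DN. In transgenic DN1 they stood at 548 ± 134 and 311 ± 176 CPM. How far cells with coreceptors take part in the DN1 levels given here was not tested.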

How the data were processed

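RNA was measured by sequencing, and the labels give total RNA as the extracted molecule; no enrichment step is named. The authors deposited 1 table of read counts per gene as whole numbers, with FPKM values beside them, and only the counts were used. The submitters' processing notes list HISAT, Bowtie2, DESeq2 and MACS2 with the builds mm9 and mm10, and give no versions or roles. The counting tool, its strand setting and any trimming are not stated, so reads where genes overlap may go to either gene. The table held 19521 genes, of which 19383 matched a RefSeq identifier (GRCm38.p6). It also held 4 columns of samples not analysed here.

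Counts were tested with edgeR 4.0.16 (limma 3.58.1, R 4.3.3). Genes passed filterByExpr with a count of at least 10 and a total of at least 15. TMM scaling came before a robust quasi-likelihood fit of the 6 libraries, and p values were two-sided and adjusted by Benjamini-Hochberg over all genes, with a threshold of 0.05. Log2 fold changes use a prior count of 0.125 and carry their standard error. The difference between the genotype effects in DN and DN3 is an interaction term over 12 libraries. The code was tested on simulated data. No 2 libraries of a group agreed within counting noise.

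Genes were named by a rule. It takes Lmo2, and the 20 largest increases and 20 largest decreases past the threshold with groups apart and a mean of at least 5 CPM. It adds up to 8 called members of each of 43 lists, marker genes given as checks, the 10 largest interaction terms in each direction, and the 10 largest changes in each direction called in every leave-one-out fit. The members, lists and tests were chosen with earlier results of these data known. The alternatives tried were DESeq2 1.42.0, other scalings, filters and sets of libraries in the fit, a replicate block, and each library left out. The libraries held 21165307 to 28842773 counted reads, and with 3 libraries a group the spread between libraries limits the precision more than depth does for all but the lowest genes. Some genes that the rule takes are not reported here. Chromatin immunoprecipitation peaks were not used here.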

Additional observations from a re-analysis of the deposited data

Results flagged for a closer look

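The genotype effect differed between total DN cells and sorted DN3 cells in 776 genes, by the test of the difference itself. Each value here is the log2 fold change, transgenic over wild type, in total DN minus that in DN3. The 10 most negative among the named genes were those of Adam19 (-5.72), Tenm4 (-4.76), Ryk, a receptor of WNT proteins (-4.53), Nav2 (-4.45), Lmo2 (-4.16), P2rx7 (-3.99), Cd8b1 (-3.97), the iron exporter gene Slc40a1 (-3.87), Zfp820 (-3.69) and Cd8a (-3.57). Among the 10 most positive were those of Bcl11a (6.24), Adam11 (4.33), Cdkn1a (4.29), the lipoprotein receptor gene Lrp1 (4.05), Adamtsl2 (3.15), Wdfy4 (3.11), the receptor kinase gene Grk3 (3.08), Ptms (3.05) and Grm4 (3.02).

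In Ryk the transgenic DN3 libraries stood apart, at 6.99, 13.03 and 35.3 CPM, and the other 9 libraries lay between 0.436 and 1.51 CPM. Nav2 was highest in wild-type DN replicate 3, at 25.4 CPM against 6.67 and 7.97 CPM in replicates 1 and 2. Slc40a1 stood at 3.47, 2.78 and 11.1 CPM in wild-type DN and 0.108, 0.655 and 0.176 CPM in wild-type DN3, with 13.5 to 41.1 CPM in transgenic DN and 16.7 to 27.2 CPM in transgenic DN3. Lrp1 fell in DN3 from 44.0, 73.1 and 51.8 CPM to 1.88, 2.34 and 0.897 CPM, while in total DN cells transgenic replicate 3, at 56.5 CPM, lay within the wild-type range.

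Of the 20 genes taken by that rule 18 and 17 lost the call without wild-type DN3 replicates 1 and 3, and 12 without either of wild-type DN replicates 2 and 3. Lmo2 and Grm4 passed in each of the 12 leave-one-out fits.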

How the results depend on the processing

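Of the alternatives run for total DN cells, 2 moved the 1547 changed genes by over 1.5 times: DESeq2 gave 2637 and a fit with the DN3 libraries gave 3363. The others gave 1399 to 1727. Leaving out 1 library gave 179 to 3146. Scaling by library totals moved the median log2 fold change of all genes from -0.013 to -0.112 and the share of increases from 60.4% to 52.6%, and 11 of 132 named genes lost the call. With all RNA libraries in 1 fit 41 lost it, and with DESeq2 none. The 776 genes whose effect differed from that in DN3 became 1953 with DESeq2, and 19 to 2418 with 1 library left out. No named gene turned direction under any alternative run. The cause of these shifts was not tested.

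Equal replicate numbers were not taken as pairs. The deviations of same-numbered libraries from their group means correlated across genes at 0.076, 0.111 and 0.174, of which the first is under 0.1, and every library correlated best with its own number, a hint from the data and not from the design. With a replicate block 1494 genes changed in total DN, 20 of 132 named genes lost the call, and 483 genes differed from DN3. Leaving out 1 library leaves a group of 2.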

Other observations

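Changed genes often stood next to each other in the RefSeq gene order of GRCm38.p6. Of 1371 tested neighbours of genes that rose, 278 also rose (20.3%, against 7.47% of all genes) and 28 fell. Of 800 tested neighbours of genes that fell, 114 also fell (14.2%, against 4.89%) and 28 rose. How far overlapping genes share reads was not tested.

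On chromosome 7 Ubqlnl, of the ubiquilin family, and Olfm5, an olfactomedin-domain gene, stand side by side and both rose. Ubqlnl stood at 27.4, 4.46 and 18.3 CPM in transgenic replicates 1, 2 and 3, with 3 reads in the wild type in all, and held in 6 of 6 fits. Olfm5 stood at 208, 26.4 and 121 CPM against 0.723, 0.409 and 0.207 CPM, and lost the call without wild-type replicates 1 and 2, with edgeR adjusted p of 0.0568 and 0.0777. In both transgenic replicate 2 was the lowest transgenic library. Other raised neighbours were Zfp711 with Pof1b on chromosome X, Clec4e with Clec4d of the same receptor family on chromosome 6, and the calcium channel gene Ryr2 with Chrm3 on chromosome 13. Lowered neighbours were Adamtsl2 with Fam163b and Map3k20 with Rapgef4 on chromosome 2, and Pla2g4a with Ptgs2, which encodes the prostaglandin synthase COX-2, on chromosome 1. Direction was not always shared: Syt13 fell while its neighbour Chst1 rose by 5.99 ± 1.41, to 62.95, 1.24 and 58.2 CPM in transgenic replicates 1, 2 and 3.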
